A study of Oryza sativa with 24 samples.

Results

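The 9 genes described here are the central genes of the rice circadian clock: LHY (OS08G0157600), the pseudo-response regulator genes PRR73 (OS03G0284100), PRR37 (OS07G0695100), PRR95 (OS09G0532400), PRR59 (OS11G0157600) and TOC1, also called PRR1 (OS02G0618200), and GI (OS01G0182600), ELF3 (OS06G0142600) and LUX (OS01G0971800). They were chosen by gene ID for their known place in the clock, from 17780 genes in all, with earlier results of these data known. All 9 were found in the tables of both tissues, which held 16897 genes for the embryo and 14049 for the endosperm, 13166 of them shared. The study compared wild-type seeds of Gopum, a japonica accession that sprouts readily on the panicle before harvest, with those of Jowoon, which resists such sprouting. Both accessions were field grown and sampled 30, 45 and 60 days after heading, written DAH below, and each seed was divided into embryo and endosperm. By the labels, every combination of accession, tissue and stage had 2 mRNA libraries, which makes 24 libraries in 12 groups, and per the study's methods the RNA of a library was pooled over many seeds and several plants.

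The circadian clock is a loop of genes that switch each other off and on over the day. In plants LHY, a MYB transcription factor, is highest around dawn and represses the genes of the evening. The pseudo-response regulators follow through the day and repress LHY. In the evening GI, a large plant-specific protein that also acts in the control of flowering, is joined by TOC1 and by ELF3 and LUX. In Arabidopsis these last proteins work together in the evening complex, a night-time repressor. In rice, PRR37, GI and ELF3 are also known as heading-date genes. The order of these peaks is known mostly from leaves of growing plants. The level of a clock gene in a harvested seed may depend on the hour at which it was taken, which was not tested. The hour of harvest is not given in the sources used here.

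A deposited table held 1 level per gene, a mean on the log2 scale of read counts relative to library size (log2 CPM). This mean was the same in the 30, 45 and 60 DAH tables for all 16897 genes of the embryo and all 14049 of the endosperm, and so it stands for the tissue over both accessions and the 3 stages. It gives no level in an accession or at a stage, and no spread between libraries. The values below are therefore single values with no error and no test. A difference between the accessions, or between morning and evening genes within an accession, was not analysed here. Library depth is unknown. A log2 CPM is not scaled to transcript length, so it ranks genes by reads and not by molecules. The difference of the same gene between tissues is free of its length. In bulk tissue, fewer cells that express a gene and less RNA per cell cannot be told apart.

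On the deposited scale all 9 clock genes had a higher mean log2 CPM in the embryo than in the endosperm, but ELF3 and LUX turned to the other side once the shift of the median gene was taken off. The difference ran from 0.89 for ELF3 to 2.95 for PRR37, with a median of 1.63, which is 3.10-fold. Of the 9 genes, 8 were at least 2-fold higher in the embryo, as were 65.8% of all genes present in both tissues. The median gene of the 13166 was itself 1.32 higher in the embryo on the log2 scale, or 2.50-fold, and 89.1% of genes were higher there. The 10 most abundant genes held 43.5% of the summed CPM in the endosperm and 11.1% in the embryo. The levels of the tissues come from separate tables, and the part of scaling in the shift of the median gene was not tested. The differences were therefore also read against the median gene. Read in this way, 7 clock genes lay above the median gene and 2, ELF3 and LUX, lay below it. By definition, as many of all shared genes lie above the median gene as below it. LHY and TOC1 were above it by only 0.18 and 0.17. The median of the 9 was 0.31 above that of all genes. With the 10 most abundant genes of each tissue left out of the totals, an alternative added after the data had been seen, the median gene was 0.68 higher in the embryo. This moves all genes alike and leaves their order as it was.

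**Figure D1:**
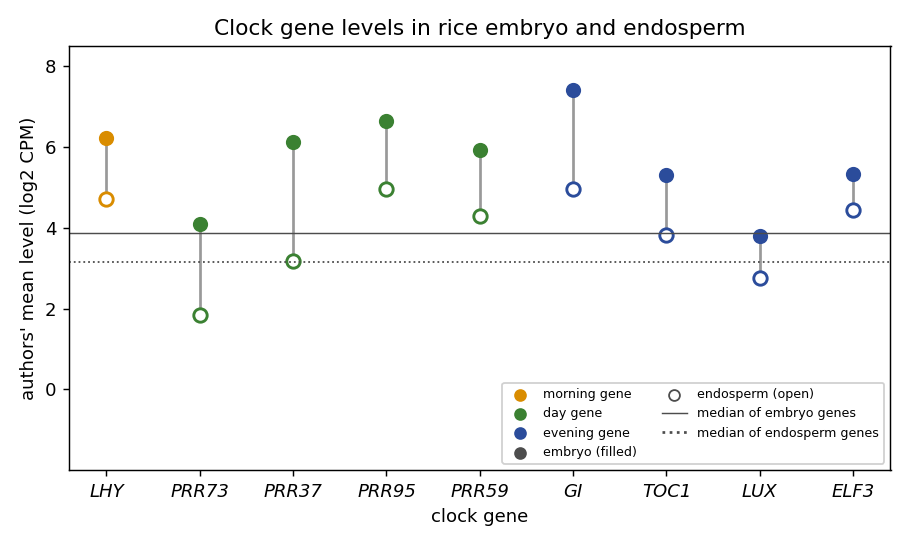
Deposited mean level (log2 CPM) of each clock gene in embryo (filled points) and endosperm (open points), coloured by the time of day at which the gene is known to peak, with the median level of all genes of each tissue as lines. All 9 filled points lie above their open points on this deposited scale, by 0.89 for ELF3 and by 2.95 for PRR37, and the differences of ELF3 and LUX turn negative less that of the median gene. Each point is 1 pooled value, so there are no error bars.

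LHY, the morning gene, lies on chromosome 8. Its mean log2 CPM was 6.22 in the embryo and 4.72 in the endosperm. This was a 2.83-fold difference, on the log2 scale 0.18 above that of the median gene. Of the genes in the tables of each tissue, 86.3% in the embryo and 78.8% in the endosperm had a lower log2 CPM. Over the 13166 genes shared by both tissues, which allow a like comparison, these shares were 82.4% and 78.0%.

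The 4 genes of the day, PRR73, PRR37, PRR95 and PRR59, all differed more between the tissues than the median gene. PRR37, on chromosome 7, had a mean log2 CPM of 6.11 in the embryo and 3.17 in the endosperm, where the median gene of the table stood at 3.15. In linear terms this was 69.2 CPM against 8.97 CPM, a 7.71-fold difference, and still 3.09-fold beyond the median gene. Among the 13166 shared genes, 98.3% had a smaller difference. PRR37 stood above 85.3% of the genes of the embryo tables but only 50.4% of those of the endosperm tables, or 81.2% and 48.6% of the shared genes. This was the largest drop among the 9 genes by either reckoning.

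PRR73, on chromosome 3, had the second largest difference of the day genes. Its mean log2 CPM was 4.09 in the embryo and 1.85 in the endosperm, the lowest endosperm level of the 9. The difference of 2.24 was 0.92 above the median gene and larger than that of 90.9% of shared genes. PRR73 stood above 54.0% of the genes measured in embryo and 21.5% of those in endosperm, or above 41.5% and 19.6% of the shared genes. In linear terms its levels were 17.0 CPM and 3.61 CPM.

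PRR95 and PRR59, on chromosomes 9 and 11, stayed close to the median gene. PRR95 had 6.63 in the embryo and 4.95 in the endosperm on the log2 CPM scale, and its difference of 1.68 was larger than that of 70.0% of shared genes. PRR59 had 5.93 and 4.29, and its difference of 1.63 was larger than that of 67.4%. The distance between PRR95 and PRR59 was 0.71 in the embryo and 0.66 in the endosperm. By contrast, PRR95 exceeded PRR37 by 0.52 in the embryo and by 1.79 in the endosperm. A distance between genes carries their lengths, but its change from tissue to tissue does not.

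**Figure D2:**
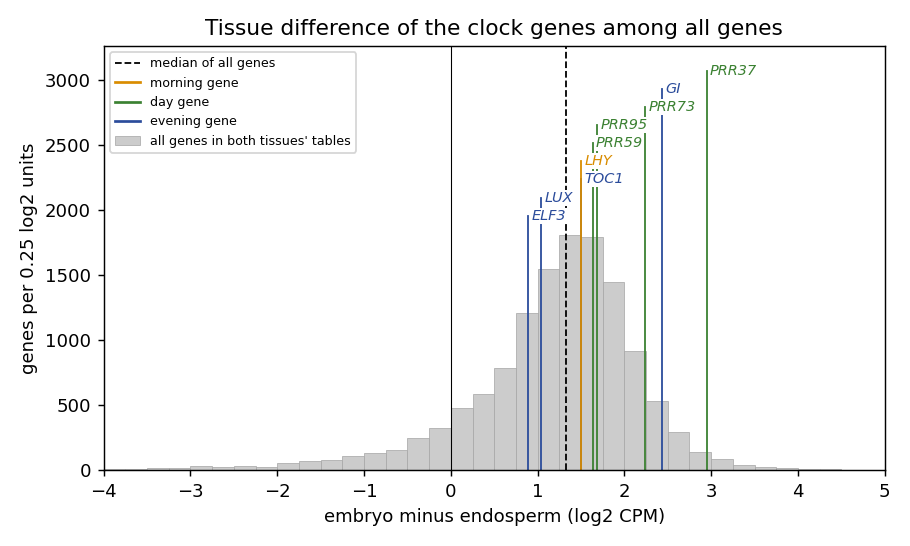
Embryo minus endosperm difference of mean log2 CPM for the 13166 genes present in both tissues (grey bars, genes per bin of the stated width), with the median of all genes (dashed) and each clock gene as a coloured line. PRR37, GI and PRR73 stand in the right-hand part of the distribution at 2.95, 2.43 and 2.24, and ELF3 and LUX stand left of the median of 1.32. Genes in the tails beyond the axis range are not drawn, among them endosperm storage protein genes with differences down to -8.07.

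The 4 evening genes did not move alike. GI, on chromosome 1, had the highest mean level by reads of the 9 genes in both tissues, with 7.40 in the embryo and 4.97 in the endosperm on the log2 CPM scale. These levels were 168.7 CPM and 31.3 CPM, a 5.39-fold difference. It was 2.16-fold beyond the median gene and larger than the difference of 94.3% of shared genes. In the endosperm the level of GI was only 0.01 above that of PRR95, against 0.76 in the embryo.

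TOC1, on chromosome 2, is a pseudo-response regulator like the day genes but acts in the evening. It had 5.31 in the embryo and 3.81 in the endosperm on the log2 CPM scale. The 2.82-fold difference was 0.17 above the median gene on the log2 scale. The distance between LHY and TOC1, which repress each other in Arabidopsis, was 0.91 in each of the tissues.

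ELF3 and LUX had the smallest differences of the 9. ELF3, on chromosome 6, had 5.34 in the embryo and 4.45 in the endosperm, or 40.4 CPM and 21.9 CPM. Its difference of 0.89 was the only one under 2-fold, and its sign turned, to -0.44, once the difference of the median gene was taken off. Of the shared genes, 68.0% lay below ELF3 in the embryo and 73.9% in the endosperm, so that ELF3 stood higher among these genes in the endosperm, whereas among all genes of each tissue its places were 0.13 percentile points apart. LUX, a MYB-type transcription factor encoded on chromosome 1, had 3.80 in the embryo, the lowest embryo level of the 9, and 2.76 in the endosperm. The LUX difference was 2.05-fold, or 13.9 CPM against 6.80 CPM, and turned to -0.28 after the same centring. Of the shared genes, LUX exceeded 34.9% in embryo and 39.8% in endosperm, but it stood above 48.7% and 41.8% of all genes of each tissue. GI exceeded ELF3 by 2.06 on the log2 scale in the embryo and by 0.52 in the endosperm. PRR37 was 0.78 above ELF3 in the embryo, whereas it was -1.28 relative to ELF3 in the endosperm.

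**Figure D3:**
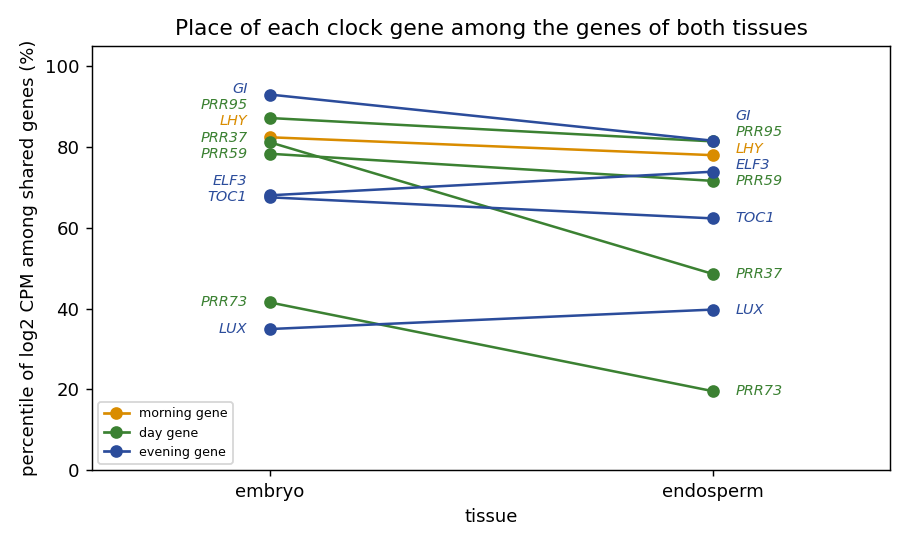
Share of the 13166 genes present in both tissues with a lower mean log2 CPM than the clock gene, for the embryo (left) and the endosperm (right), 1 line per gene, coloured by time of day. The lines of PRR37 (81.2% to 48.6%) and PRR73 (41.5% to 19.6%) fall most, and those of ELF3 (68.0% to 73.9%) and LUX (34.9% to 39.8%) rise. Levels are not scaled to transcript length.

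At a margin of 2-fold beyond the median gene, 2 of the 9 clock genes were higher in the embryo, PRR37 and GI. Of all shared genes, 7.41% passed that margin. On the other side, 0 of the 9 were lower by 2-fold than the median gene, where 15.8% of all genes were. Of the sets by time of day, the day genes had a median difference of 1.96 (range 1.63 to 2.95) and the evening genes of 1.27 (range 0.89 to 2.43). The ranges overlapped, with GI inside the range of the day genes. The 5 pseudo-response regulator genes, TOC1 included, all lay above the median gene, by 0.17 to 1.63, where by definition as many shared genes lie above it as below it. The order of the 9 genes by difference was PRR37, GI, PRR73, PRR95, PRR59, LHY, TOC1, LUX and ELF3. LHY and TOC1 were neighbours in this order at 2.83-fold and 2.82-fold. Without a spread between libraries, it cannot be said which genes in this order differ.

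A wider list held 12 further genes of the clock and of day-length control, listed by ID (a second ELF3 copy, F-box genes of the ZTL type, casein kinases and flowering-time regulators). Of these, 6 were in the tables of both tissues and 6 were in none of the tables. All 6 that were present were higher in the embryo as deposited, by 0.52 to 1.32, as were 89.1% of all shared genes. Relative to the median gene they lay at -0.81 to -0.000337, so that the highest of them was level with it. At least 2-fold higher in the embryo were 2 of the 6, beside 65.8% of all shared genes.

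Tissue markers were also examined by ID. Of 8 starch and storage protein genes of the endosperm, all 8 were in the endosperm tables, with log2 CPM from 4.23 to 16.84. Of these, 7 were also listed in the embryo, at 0.98 to 9.28, and the embryo minus endosperm differences ran from -8.07 to -3.26. Their summed CPM in the embryo was 0.518% of that in the endosperm. Of 5 genes listed as embryo markers, all 5 were in the embryo tables and 4 in the endosperm tables. The 4 were 0.06 to 3.16 higher in the embryo, but only 1 of them was above the median gene. Oleosin, LEA and VP1 genes on this list are also known from the aleurone, the outer layer of the endosperm. The only embryo marker with no level in the endosperm tables was OS03G0727000, with 4.46 in the embryo. The part of RNA from aleurone or embryo in the endosperm levels of the clock genes was not tested.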

How the data were processed

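Reads were trimmed (Trimmomatic), aligned to the IRGSP rice genome (HISAT2) and counted per gene (featureCounts) by the authors, who scaled CPM values by the trimmed mean of M-values and tested Jowoon against Gopum stage by stage in edgeR. The 6 deposited tables hold, per gene, a mean log2 CPM over the libraries of a tissue. They also hold the log2 fold change, p-value and FDR of the authors' own comparison. These 3 columns were not used, so accessions and stages were not compared. The labels give 2 libraries per group, fewer than the replicates named in the study's methods, and how many libraries entered each mean is unknown. The gene filter is not given in the sources used here, and depth is unknown.

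Levels were read with pandas 2.3.3 in Python 3.11.15. Computed were the embryo minus endosperm difference of log2 CPM, the share of genes below each gene (among all genes of the tissue and, as an alternative, among shared genes), and counts at a 2-fold difference. Named are all 9 clock genes. Gene names come from the clock gene list. RefSeq (another assembly, used for names only) lists 8 of the 9 under a synonym (TOC1 as PRR1, LUX as PCL1, ELF3 as ELF3-1), all 8 on the chromosome given in the gene ID. PRR59 was not matched, and 0 of the gene IDs themselves were. Chromosomes are those in the IDs. Members and lists were chosen with earlier results of these data known.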

Additional observations from a re-analysis of the deposited data

How the results depend on the processing

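The median embryo minus endosperm difference of the 9 clock genes, 1.63 on the log2 scale, was 0.31 less the median of all shared genes and 0.29 less the median of genes of like level (1 of 10 bins). It was 0.99 with the 10 most abundant genes of each tissue left out of the total, an alternative chosen after seeing the data. The number of clock genes at least 2-fold higher in the embryo was 8, where 65.8% of all shared genes passed the same fold. After centring on the median gene, also added after seeing the data, it was 2, where 7.41% of all shared genes passed. It was 3 at a fold of 4, and 4 without the 10 most abundant genes. A fold of 4 lies between the upper quartile of the difference over all shared genes, 1.79 on the log2 scale, and their 95th percentile, 2.49. The exact share of all genes was not computed at these settings, so neither count is read as a result about the clock genes. The differences of ELF3 and LUX turned to -0.44 and -0.28 less the median gene, and to -0.46 and -0.40 within these bins. The other 7 kept their sign under both centrings. Ranked among shared genes only, the embryo percentiles of PRR73 and LUX moved from 54.0 to 41.5 and from 48.7 to 34.9, and the other 16 percentiles moved by less than 10 points. The shifts under centring and without the 10 genes follow from the alternatives' own construction, which moves all genes, or all genes of a level, alike. With the 45 or 60 DAH tables every value was identical. Scaling to coding length was not run, since no lengths were used here. No paired analysis was possible because the tables carry no values per library, and for the same reason no replicate could be left out.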
